A study of Mus musculus with 14 samples.

Results

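Hilpda, Plin2, Plin3, Pnpla2, G0s2, Scd1, Scd2, Dgat1, Dgat2 and Pparg encode proteins that coat lipid droplets, make or break down the fat inside them, desaturate fatty acids or control such genes. They are 10 of the 52636 mouse genes in the deposited table, taken by symbol, and each symbol matched 1 Ensembl identifier. The cells were transformed mouse embryonic fibroblasts (tMEF), a mouse connective tissue cell culture able to grow on, in which the telomere-binding protein TRF1 of the mouse had been replaced by that of the naked mole rat (NMR) or by a mutant of it. The GLAD mutant of NMR TRF1 carries Glu69Lys, Val70Ala and Ala75Thr, the TIN mutant carries Ala105Thr, and the double mutant GLAD/TIN carries all of these. Each mutant was grown in hypoxia (1% oxygen) and in normoxia, and wild-type NMR TRF1 was grown in normoxia, which makes 7 groups of 2 libraries, A and B, and 14 libraries of bulk RNA. Wild-type cells in hypoxia were not analysed here, so the hypoxia effect in the mutants has no wild-type counterpart. The title of the series names glycolysis and telomere replication at low oxygen as its subject.

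The labels do not say whether libraries A and B of a group came from separate cultures, so the p-values reflect only how far libraries A and B lie apart, a spread that may be technical. Nor do they say how many cell lines stand behind a mutant, so line and substitution cannot be told apart. The wild-type libraries are labelled NMR TRF1, but their short names hold the word mouse and follow another scheme, so genotype and any difference in handling cannot be told apart in the comparisons with wild type. Estimated depth was 11923542 to 15031622 reads a library, which puts 3 reads, the limit that a count of 0 allows, at 0.200 to 0.252 CPM (read counts scaled to a common library total; counting error only). The fibroblast label was checked against 8 markers, of which 7 were present. The collagen genes Col1a1, Col1a2 and Col3a1, the filament gene Vim, the matrix gene Fn1 and the receptors Pdgfra and Pdgfrb stood at 67.7 CPM or more in every library, while Thy1 was at most 0.202 CPM. Their summed level was 6750 to 15483 CPM. Of 8 adipocyte markers 2 passed 1 CPM in 2 libraries, Fabp4 at 12.3 to 59.4 CPM and Lipe at 15.0 to 33.2 CPM, and the defining markers Adipoq, Lep, Cfd, Cidec, Plin1 and Retn stayed at or under 0.308 CPM.

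Lipid droplets are stores of neutral fat, mainly triglyceride and sterol ester, that nearly every cell can form when fatty acids arrive faster than they are used. Acyltransferases of the DGAT family add the last fatty acid to make triglyceride, perilipins coat the droplet, and the lipase ATGL, encoded by Pnpla2, starts its breakdown while the small proteins HILPDA and G0S2 inhibit that lipase. Stearoyl-CoA desaturases, which need molecular oxygen, put a double bond into saturated fatty acids before these are stored. In many cell types low oxygen is known to favour droplet storage, and Hilpda is known as a target of the hypoxia-inducible factor (HIF).

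HIF binds DNA at a core of ACGTG or GCGTG. These letters were searched on both strands in windows of 300 bases, 250 before to 50 after the RefSeq start of each gene (GRCm38.p6), in which 6 of the 10 genes had an entry. Windows of Hilpda and Plin2 are shown because these genes had the most matches, and that of Plin3 as an example without a match. Plin3 fell in hypoxia, while Pnpla2, whose window also had no match, rose on average over the mutants. Each window shown is printed from 250 bases before the start to 10 after it, 260 bases, on the gene's own strand and 5′ to 3′, with matches in capitals. The positions are chr6:29272376-29272635 on the plus strand for Hilpda, chr4:86670050-86670309 on the minus strand for Plin2 and chr17:56290502-56290761 on the minus strand for Plin3. The Hilpda window belongs to the later of the 2 starts in the table and takes in the earlier start.
Hilpda: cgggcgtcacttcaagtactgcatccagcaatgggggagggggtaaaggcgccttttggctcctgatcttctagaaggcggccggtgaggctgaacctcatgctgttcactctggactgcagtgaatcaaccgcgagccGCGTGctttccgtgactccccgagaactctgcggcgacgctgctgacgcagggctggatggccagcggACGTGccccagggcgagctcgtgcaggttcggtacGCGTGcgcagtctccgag
Plin2: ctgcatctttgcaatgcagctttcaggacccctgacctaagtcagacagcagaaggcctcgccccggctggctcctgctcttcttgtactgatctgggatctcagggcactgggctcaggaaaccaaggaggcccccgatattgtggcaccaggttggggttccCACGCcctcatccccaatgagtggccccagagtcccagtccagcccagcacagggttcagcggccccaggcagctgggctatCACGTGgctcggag
Plin3: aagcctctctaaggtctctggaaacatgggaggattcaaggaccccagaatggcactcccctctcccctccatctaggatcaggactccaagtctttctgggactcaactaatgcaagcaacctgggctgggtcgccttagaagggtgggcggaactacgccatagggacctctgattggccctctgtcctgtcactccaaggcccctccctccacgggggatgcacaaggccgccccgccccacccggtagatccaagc

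The Hilpda window held 3 matches that did not overlap. That of Plin2 also held 3, and 2 of these are the same CACGTG read on each strand, a palindrome that is the E-box letters too and occurs in 7.15% of the 32851 mouse promoter windows of that length. Of those windows 43.8% held at least 1 match and 8.93% held 3 or more. An earlier Hilpda window held 1 match, which is the first of the 3 in the Hilpda window shown. The G0s2 window held 1 match, and the Pnpla2 and Plin3 windows none. Of the 3 Pparg windows 1 held 2 matches and the others none. The matches describe letters in a window and not binding.

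Hypoxia changed most of these genes when averaged over the 3 mutants, in both directions. Levels are CPM after TMM scaling (trimmed mean of M values), changes are differences of log2(scaled CPM + 0.5) with their standard error, and a gene is called at an adjusted p under 0.05 from limma with Benjamini-Hochberg adjustment over all genes tested. Of the 10 genes 9 passed the filter of 1 CPM in 2 libraries, and G0s2 did not. Dgat2, Hilpda, Dgat1 and Pnpla2 rose, Scd1, Plin3 and Pparg fell, and Plin2 and Scd2 were not called, so 7 of 9 were called, 4 higher and 3 lower. Of all 16157 genes 67.5% were called, 30.6% higher and 37% lower, so the share is close to that of genes in general. In GLAD 6 of 9 were called (48.1% of all genes), in TIN 9 of 9 (53.9%) and in the double mutant 7 of 9 (56.1%). The median change of the 9 genes was 0.02 on average over the mutants, beside −0.04 over all genes tested. Macrophage markers moved with oxygen too: 4 of 6 were present (Cd68, Csf1r, Cd14 and Lyz2), their summed level averaged 68.8 to 73.9 CPM in the hypoxia groups and 33.5 to 44.1 CPM in the normoxia groups of the mutants, and the defining markers Ptprc and Adgre1 stayed at or under 0.103 CPM. Their part in the results was not tested.

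**Figure D1:**
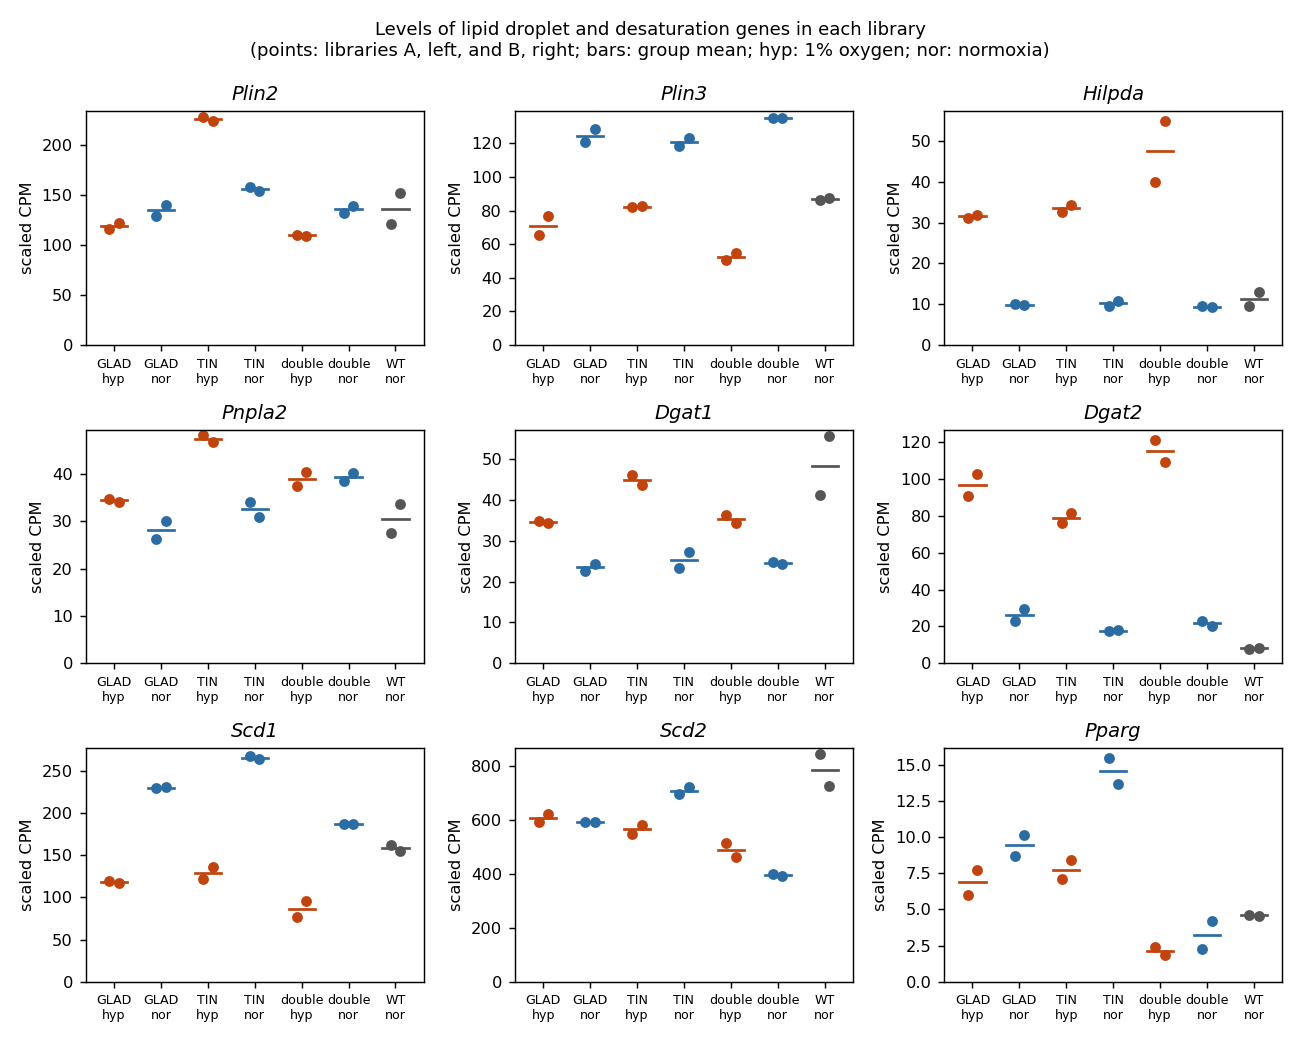
Level of each of 9 genes in scaled CPM (vertical axes start at 0), with 1 point per library (A left, B right) and a bar at the group mean, for hypoxia and normoxia of the GLAD, TIN and double mutants and for wild type in normoxia. Hilpda stood at 31.1 CPM or more in all 6 hypoxia libraries and at 13.1 CPM or less in the other 8, while Plin2 stood apart only in the TIN hypoxia libraries at 224 and 227 CPM.

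Plin2 encodes perilipin 2, the coat protein found on droplets of most cell types (ENSMUSG00000028494, GRCm38 chromosome 4, 86648386 to 86670060, minus strand). It had 116 and 122 CPM in GLAD hypoxia libraries A and B, against 129 and 139.9 CPM in GLAD normoxia, and 227 and 224 CPM in TIN hypoxia, against 157 and 154 CPM in TIN normoxia. In the double mutant it had 109.9 and 109 CPM in hypoxia, against 132 and 139 CPM in normoxia, and the wild type held 120.3 and 152 CPM. The TIN hypoxia libraries were the highest of the 14, and the double mutant hypoxia libraries the lowest. Plin2 rose with hypoxia in TIN by 0.54 ± 0.09 (adjusted p = 6.2e-05) and fell in the double mutant by 0.31 ± 0.09 (6.5e-03). In GLAD the change was −0.17 ± 0.09 (adjusted p = 1.2e-01), although the libraries did not overlap. The mean over the mutants, 0.02 ± 0.05 (7.7e-01), therefore averages opposite directions. The fall in the double mutant was not called without its normoxia library B (−0.27, adjusted p = 5.8e-02), and the GLAD value was called without either wild-type library (−0.17, 1.7e-02) on the CPM as deposited (−0.21, 4.7e-02) and in a fit of the GLAD groups alone (−0.17, 2.3e-02). Of the 50-base stretches of its transcripts 2.57% also occur in another gene.

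The hypoxia effect on Plin2 differed between the mutants. It was 0.71 ± 0.13 larger in TIN than in GLAD (adjusted p = 4.1e-04) and 0.84 ± 0.13 smaller in the double mutant than in TIN (4.7e-05), while the double mutant and GLAD differed by −0.14 ± 0.13 (5.3e-01). In hypoxia Plin2 was 1.89-fold as high in TIN as in GLAD (0.92 ± 0.09, 8.2e-08) and lower in the double mutant than in TIN by 1.04 (1.7e-08).

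Plin3 encodes perilipin 3, also called TIP47, a coat protein that moves between the cytosol and small droplets (ENSMUSG00000024197, GRCm38 chromosome 17, 56277476 to 56292873, minus strand). It had 65.4 and 76.8 CPM in GLAD hypoxia, against 121 and 129 CPM in GLAD normoxia, and 82.0 and 82.5 CPM in TIN hypoxia, against 119 and 123 CPM in TIN normoxia. Double mutant libraries had 50.6 and 54.7 CPM in hypoxia, against 135.0 and 135.0 CPM in normoxia. All 6 hypoxia libraries lay below all 6 normoxia libraries of the mutants, and Plin3 fell by 0.81 ± 0.08 in GLAD (adjusted p = 2.4e-07), by 0.55 ± 0.08 in TIN (1.6e-05) and by 1.35 ± 0.08 in the double mutant (1.6e-10). The fall was larger in the double mutant than in GLAD by 0.54 ± 0.11 (−0.54, adjusted p = 3.6e-03) and than in TIN by 0.80 ± 0.11 (−0.80, 3.4e-05). Between TIN and GLAD the effects differed by 0.26 ± 0.11, which was not called (9.4e-02) and was 0.17 without GLAD hypoxia library A (3.1e-01). It was called without GLAD hypoxia library B (0.37, 2.9e-02), without either wild-type library (0.26, 4.3e-02) and in a fit of those groups alone (0.26, 2.7e-02).

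Hilpda (ENSMUSG00000043421, GRCm38 chromosome 6, 29272488 to 29275446, plus strand) encodes the hypoxia-inducible lipid droplet-associated protein, an inhibitor of ATGL, and its promoter letters are shown above. It had 31.1 and 32.0 CPM in GLAD hypoxia, against 10.0 and 9.71 CPM in GLAD normoxia, and 32.7 and 34.3 CPM in TIN hypoxia, against 9.54 and 10.8 CPM in TIN normoxia. Double mutant libraries had 40.0 and 55.1 CPM in hypoxia, against 9.48 and 9.34 CPM in normoxia. Hypoxia and normoxia libraries were far apart in every mutant, and the largest gap between libraries of 1 group was in the double mutant in hypoxia. Hilpda rose by 1.63 ± 0.15 in GLAD (adjusted p = 7.9e-08), by 1.67 ± 0.15 in TIN (4.6e-08) and by 2.26 ± 0.15 in the double mutant (6.0e-10), or 4.79-fold. The rise was larger in the double mutant than in TIN by 0.59 ± 0.21 (3.2e-02). Against GLAD the difference of 0.63 ± 0.21 was not called (5.4e-02).

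The larger rise of Hilpda in the double mutant rested on library B of its hypoxia group. Without that library the difference from TIN was 0.36 (adjusted p = 1.8e-01). The call also ended without double mutant normoxia library A (0.59, 6.4e-02) or B (0.58, 7.8e-02), TIN hypoxia A (0.55, 9.5e-02) or B (0.62, 6.2e-02) or TIN normoxia B (0.50, 1.2e-01), and with no filter on low values (0.59, 9.7e-02). The difference from GLAD was 0.40 without double mutant hypoxia library B (2.3e-01), and it was called without A (0.86, 1.7e-02), with the letter as a replicate block (0.63, 3.2e-02), without wild-type library A (0.63, 9.4e-03) or B (0.63, 9.9e-03), with median-of-ratios scaling (0.64, 4.4e-02), in a fit of those groups alone (0.63, 1.4e-02) and with length and GC trends removed (0.64, 2.0e-02).

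Pnpla2 encodes ATGL, the lipase that takes the fatty acid off triglyceride at the start of lipolysis (ENSMUSG00000025509, GRCm38 chromosome 7, 141455198 to 141460743, plus strand). It had 34.7 and 34.2 CPM in GLAD hypoxia, against 26.3 and 30.1 CPM in GLAD normoxia, and 48.2 and 46.6 CPM in TIN hypoxia, against 34.0 and 31.0 CPM in TIN normoxia. Its values in the double mutant were 37.5 and 40.3 CPM in hypoxia, against 38.6 and 40.2 CPM in normoxia, and these libraries overlapped. Pnpla2 rose in TIN by 0.54 ± 0.10 (adjusted p = 2.9e-04) and in GLAD by 0.29 ± 0.10 (3.1e-02), with −0.02 ± 0.10 in the double mutant (9.0e-01). The effect was smaller in the double mutant than in TIN by 0.56 ± 0.15 (−0.56, 5.7e-03). The double mutant and GLAD differed by −0.30 ± 0.15 (2.0e-01), a value called with length and GC trends removed (−0.35, 4.4e-02). The call in GLAD ended without GLAD normoxia library A (0.15, adjusted p = 3.7e-01), GLAD hypoxia A (0.24, 1.6e-01) or B (0.30, 9.5e-02) or double mutant normoxia A (0.24, 7.2e-02), with no filter on low values (0.29, 6.5e-02) and on the CPM as deposited (0.25, 5.1e-02).

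G0s2, the gene of the other small inhibitor of ATGL (ENSMUSG00000009633, GRCm38 chromosome 1, 193272161 to 193273217, minus strand), was listed at 0 in 13 of the 14 libraries. GLAD normoxia library B held 0.0981 scaled CPM, under the level of 3 reads. At this depth a count of 0 allows a level of up to 0.200 to 0.252 CPM, and no fold or test is given. Of the ATGL inhibitors HILPDA and G0S2, the gene of HILPDA alone was measurable.

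The acyltransferase genes Dgat1 and Dgat2, which are unrelated in sequence, both rose in hypoxia. Dgat2 (ENSMUSG00000030747, GRCm38 chromosome 7, 99153658 to 99182719, minus strand) had 90.9 and 103 CPM in GLAD hypoxia, against 23.0 and 29.7 CPM in GLAD normoxia, and 76.0 and 81.3 CPM in TIN hypoxia, against 17.3 and 17.9 CPM in TIN normoxia. In the double mutant it had 121 and 109 CPM in hypoxia, against 22.8 and 20.3 CPM in normoxia. The lowest hypoxia library, at 76.0 CPM, was above the highest normoxia library, at 29.7 CPM. Dgat2 rose by 1.87 ± 0.12 in GLAD (adjusted p = 4.4e-10), by 2.13 ± 0.12 in TIN (6.6e-11) and by 2.39 ± 0.12 in the double mutant (1.1e-11), or 5.23-fold, and its mean rise of 2.13 ± 0.07 (5.2e-15) was the largest of the 9 genes.

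Whether the rise of Dgat2 differed between the double mutant and GLAD depended on the processing. The difference was 0.52 ± 0.16 (adjusted p = 4.1e-02). The call ended without GLAD normoxia library B (0.37, 1.9e-01), GLAD hypoxia A (0.45, 1.6e-01) or B (0.61, 5.6e-02), double mutant hypoxia A (0.44, 1.6e-01), double mutant normoxia B (0.44, 1.6e-01) or any of the 4 TIN libraries (0.52, 5.5e-02 or 5.9e-02), nor with no filter on low values (0.52, 1.2e-01). TIN and GLAD differed by 0.26 ± 0.16 (2.4e-01), a value of 0.47 without GLAD normoxia library A (4.3e-02) and 0.11 without B (6.5e-01). The double mutant and TIN differed by 0.26 ± 0.16 (2.1e-01), which was called with length and GC trends removed (0.48, 1.3e-02).

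Dgat1 (ENSMUSG00000022555, GRCm38 chromosome 15, 76502015 to 76511953, minus strand) had 34.9 and 34.5 CPM in GLAD hypoxia, against 22.7 and 24.4 CPM in GLAD normoxia, and 46.2 and 43.8 CPM in TIN hypoxia, against 23.3 and 27.2 CPM in TIN normoxia. Its values in the double mutant were 36.3 and 34.3 CPM in hypoxia, against 24.8 and 24.3 CPM in normoxia. No hypoxia library overlapped a normoxia library of the mutants. Dgat1 rose by 0.55 ± 0.12 in GLAD (adjusted p = 9.2e-04), by 0.83 ± 0.12 in TIN (1.3e-05) and by 0.51 ± 0.12 in the double mutant (1.3e-03). None of the 3 differences between these effects was called over all libraries, at adjusted p = 2.2e-01 for TIN minus GLAD, 9.1e-01 for double mutant minus GLAD and 1.4e-01 for double mutant minus TIN. The last of these, −0.31 ± 0.17, was called without wild-type library A (−0.31, 3.6e-02) or B (−0.31, 3.7e-02) and, just under the threshold, in a fit of those groups alone (−0.31, 5.0e-02), and was −0.20 without TIN normoxia library A (4.1e-01).

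With levels set per kilobase of exon, the ratio of Dgat2 to Dgat1 can be read within each library, where scaling between libraries cancels. The ratio was 2.77 ± 0.26 in GLAD hypoxia and 1.11 ± 0.14 in GLAD normoxia, 1.74 ± 0.15 in TIN hypoxia and 0.696 ± 0.060 in TIN normoxia, and 3.23 ± 0.11 in double mutant hypoxia and 0.870 ± 0.059 in double mutant normoxia (SD, n = 2 each). In wild type in normoxia it was 0.167 ± 0.021 (SD, n = 2). The lowest ratio of a hypoxia library, 1.63, lay above the highest of a normoxia library, 1.21, and every mutant library lay above both wild-type libraries. No test was run on these ratios.

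**Figure D2:**
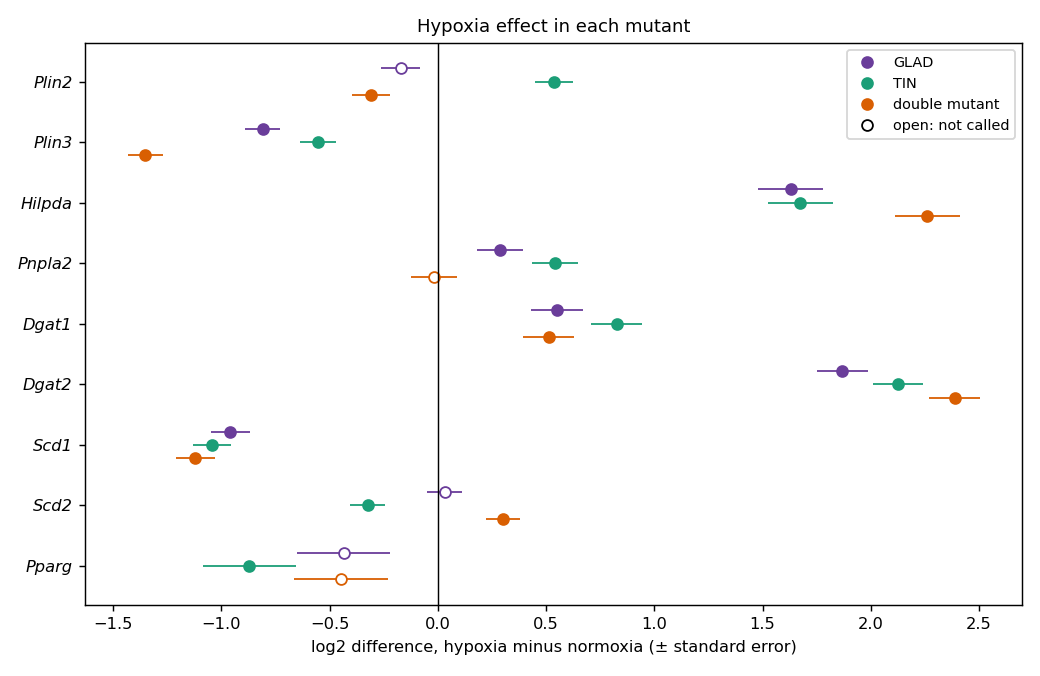
Log2 difference between hypoxia and normoxia in each mutant (horizontal axis) for 9 genes, with bars of 1 standard error; filled points were called at an adjusted p under 0.05. Dgat2 and Hilpda lie between 1.63 and 2.39 in all 3 mutants, Scd1 between −1.12 and −0.96, and Plin2 lies at 0.54 in TIN and −0.31 in the double mutant.

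The desaturase genes Scd1 and Scd2 parted in hypoxia. Scd1 (ENSMUSG00000037071, GRCm38 chromosome 19, 44394455 to 44407879, minus strand), the main desaturase of liver and fat, had 119 and 117 CPM in GLAD hypoxia, against 229 and 231 CPM in GLAD normoxia, and 122 and 136 CPM in TIN hypoxia, against 267 and 264 CPM in TIN normoxia. Scd1 had 76.2 and 96.2 CPM in double mutant hypoxia, against 187 and 187 CPM in double mutant normoxia. The groups did not overlap, and Scd1 fell by 0.96 ± 0.09 in GLAD (adjusted p = 8.8e-08), by 1.04 ± 0.09 in TIN (2.5e-08) and by 1.12 ± 0.09 in the double mutant (6.4e-09). The 3 effects differed from one another by 0.16 or less in size, at adjusted p = 4.4e-01 or more.

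Scd2 (ENSMUSG00000025203, GRCm38 chromosome 19, 44293674 to 44306864, plus strand), the form known from brain and from embryonic tissues, had 590.4 and 619 CPM in GLAD hypoxia, against 591 and 592 CPM in GLAD normoxia, and 548 and 582 CPM in TIN hypoxia, against 694 and 719.6 CPM in TIN normoxia. Scd2 had 514 and 461 CPM in double mutant hypoxia, against 399.9 and 391 CPM in double mutant normoxia. Scd2 fell in TIN by 0.32 ± 0.08 (adjusted p = 2.3e-03) and rose in the double mutant by 0.30 ± 0.08 (3.8e-03), with 0.03 ± 0.08 in GLAD (7.7e-01), where the libraries overlapped. The rise in the double mutant was not called without its hypoxia library A (0.22, 6.0e-02). The effect was larger in the double mutant than in TIN by 0.62 ± 0.11 (2.9e-04).

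Against GLAD the Scd2 effect was lower in TIN by 0.36 ± 0.11 (−0.36, adjusted p = 2.2e-02). That call ended without GLAD normoxia library A (−0.32, 1.1e-01) or B (−0.32, 1.2e-01), GLAD hypoxia A (−0.36, 6.2e-02) or B (−0.32, 7.6e-02), TIN normoxia B (−0.33, 7.7e-02), TIN hypoxia A (−0.31, 1.0e-01) or double mutant normoxia A (−0.32, 6.2e-02), and with no filter on low values (−0.36, 6.3e-02). The double mutant and GLAD differed by 0.27 ± 0.11 (1.3e-01), a value called without either wild-type library (0.27, 3.6e-02) and with length and GC trends removed (0.29, 3.9e-02), and at 0.19 without double mutant hypoxia library A (3.7e-01).

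Per kilobase of exon, Scd1 stood at 0.218 ± 0.010 of the Scd2 level in GLAD hypoxia and 0.434 ± 0.001 in GLAD normoxia, at 0.255 ± 0.009 in TIN hypoxia and 0.420 ± 0.014 in TIN normoxia, and at 0.199 ± 0.048 in double mutant hypoxia and 0.527 ± 0.008 in double mutant normoxia (SD, n = 2 each). Wild type in normoxia, at 0.227 ± 0.016 (SD, n = 2), lay among the hypoxia libraries of the mutants. Its Scd1 level was above those hypoxia libraries and below the normoxia libraries of the mutants, and its Scd2 level was above all mutant libraries. The genes are paralogues, and of stretches of 50 bases in the annotated transcripts 4.56% of those of Scd1 and 3.97% of those of Scd2 also occur in another gene, so reads could be split or dropped there. Scd2 also shares 61 exon bases on the same strand with Mir5114, to which a mean of 27.1 CPM was listed. How the authors' counting treated such reads is not given in the sources used here.

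**Figure D3:**
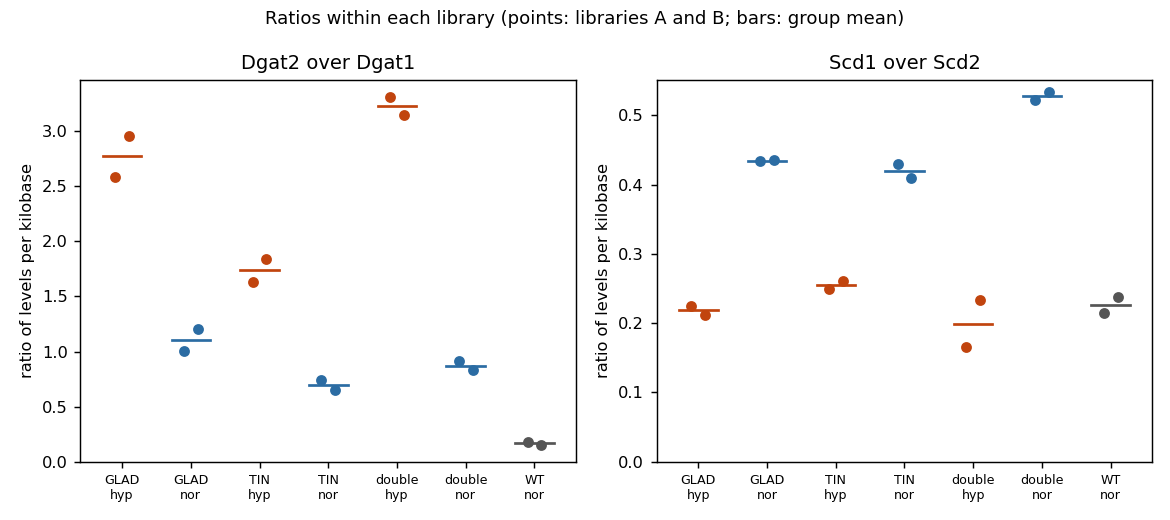
Ratio of levels per kilobase within each library, Dgat2 over Dgat1 on the left and Scd1 over Scd2 on the right (vertical axes start at 0; points are libraries A and B, bars group means). For Dgat2 over Dgat1 the hypoxia means are 1.74 to 3.23 and the wild-type mean is 0.167; for Scd1 over Scd2 the wild-type mean of 0.227 lies among the hypoxia means of 0.199 to 0.255.

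Pparg encodes the nuclear receptor PPARγ, which controls fat storage genes in adipocytes (ENSMUSG00000000440, GRCm38 chromosome 6, 115360951 to 115490399, plus strand). It was low throughout, at 6.01 and 7.75 CPM in GLAD hypoxia, against 8.71 and 10.2 CPM in GLAD normoxia, and 7.08 and 8.42 CPM in TIN hypoxia, against 15.5 and 13.7 CPM in TIN normoxia. In the double mutant it had 2.43 and 1.87 CPM in hypoxia, against 2.25 and 4.20 CPM in normoxia. Libraries A and B differed by 1.87-fold in double mutant normoxia, the widest such gap among the 9 genes. Pparg fell in TIN by 0.87 ± 0.22 (adjusted p = 2.4e-03) and on average by 0.58 ± 0.12 (4.4e-04). In GLAD the change was −0.44 ± 0.22 (1.1e-01) and in the double mutant −0.45 ± 0.22 (8.6e-02). The double mutant value turned on its normoxia libraries: it was called without A (−0.85, 3.9e-03) and near 0 without B (−0.06, 8.4e-01). The GLAD value was called without double mutant normoxia library A (−0.48, 3.5e-02) and in a fit of the GLAD groups alone (−0.44, 2.0e-02). No difference between mutants in this effect was called over all libraries, at adjusted p = 2.8e-01 or more, and the double mutant effect minus that of TIN was 0.81 (3.4e-02) without double mutant normoxia library B and 0.03 (9.5e-01) without A.

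The mutants were also compared with wild type in normoxia, that is, with the libraries labelled so, whose TRF1 was not checked. Dgat2 was higher and Dgat1 lower in all 3 mutants, Plin3 and Scd1 were higher, and Hilpda and Plin2 were called in none. In GLAD 6 of 9 genes were called, 4 higher and 2 lower, beside 55.2% of all genes (26.9% higher and 28.3% lower). TIN had 5 of 9, 4 higher and 1 lower, beside 60.2% (31.4% and 28.8%). The counts in GLAD and in TIN both rose in fits without 1 wild-type library. Without wild-type library A, for example, the GLAD values were −0.39 for Hilpda, −0.18 for Plin2 and −0.25 for Pnpla2. The double mutant had 6 of 9, 4 higher and 2 lower, beside 56.9% (28.2% and 28.6%). With all libraries, the counts stand close to what these shares of 9 genes give. The 3 comparisons share the wild-type libraries, so their values are not independent of one another, and the wild-type libraries differed more from each other than most groups, as with Hilpda at 9.58 and 13.1 CPM. The summed fibroblast markers averaged 8958 CPM in GLAD, 6851 CPM in TIN and 8574 CPM in the double mutant, against 15132 CPM in wild type, and their part in these differences was not tested.

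Dgat2 had 23.0 and 29.7 CPM in GLAD, 17.3 and 17.9 CPM in TIN and 22.8 and 20.3 CPM in the double mutant, against 7.56 and 8.51 CPM in wild type, and every mutant library lay above both. It was higher by 1.64 ± 0.12 in GLAD (adjusted p = 1.9e-09), by 1.09 ± 0.12 in TIN (2.3e-07) and by 1.37 ± 0.12 in the double mutant (1.6e-08). Dgat1 had 22.7 to 27.2 CPM over the 6 mutant libraries, against 41.2 and 55.6 CPM in wild type. It was lower by 1.01 ± 0.12 in GLAD (−1.01, 1.4e-06), by 0.91 ± 0.12 in TIN (−0.91, 2.7e-06) and by 0.95 ± 0.12 in the double mutant (−0.95, 2.5e-06). The partners in triglyceride synthesis thus lay on opposite sides of wild type in normoxia, while in hypoxia both rose.

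Of the coat genes, Plin3 had 119 to 135.0 CPM over the 6 mutant libraries, against 86.2 and 87.7 CPM in wild type, and was higher by 0.52 ± 0.08 in GLAD (adjusted p = 3.7e-05), 0.47 ± 0.08 in TIN (6.4e-05) and 0.63 ± 0.08 in the double mutant (3.4e-06). Plin2 did not differ by call, with −0.01 ± 0.09 in GLAD (9.3e-01), 0.20 ± 0.09 in TIN (5.8e-02) and 0.00 ± 0.09 in the double mutant (9.8e-01). Its wild-type libraries lay apart, at 120.3 and 152 CPM. The TIN value was 0.03 without wild-type library A (7.1e-01) and was called without B (0.37, 1.5e-04), on the CPM as deposited (0.23, 2.3e-02) and with length and GC trends removed (0.33, 3.3e-04) and with the letter as a replicate block (0.20, 4.5e-02). The GLAD value was called without wild-type library A (−0.18, 3.9e-02) and was 0.16 without B (7.7e-02).

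Among the lipase genes, Pnpla2 had 38.6 and 40.2 CPM in the double mutant, against 27.4 and 33.6 CPM in wild type, and was higher by 0.37 ± 0.10 (adjusted p = 5.9e-03). This call ended without wild-type library A (0.22, 6.1e-02) and in a fit of those groups alone (0.37, 6.0e-02). In GLAD and TIN it differed by −0.11 ± 0.10 (3.9e-01) and 0.09 ± 0.10 (4.5e-01). The GLAD value was called without wild-type library A (−0.25, 3.5e-02) and was 0.04 without B (8.0e-01). The TIN value was called with length and GC trends removed (0.27, 8.3e-03) and, just under the threshold, without wild-type library B (0.24, 5.0e-02), and was −0.05 without A (6.9e-01). Hilpda differed by −0.18 to −0.24 in GLAD and the double mutant and by −0.13 in TIN, with adjusted p of 1.8e-01 or more. Without wild-type library A, the lower of the pair, all 3 values were called, at −0.39 in GLAD (2.7e-02), −0.35 in TIN (4.5e-02) and −0.45 in the double mutant (1.1e-02). Without library B they were 0.04 (8.5e-01), 0.08 (6.6e-01) and −0.02 (9.1e-01) in the same order.

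Scd1 had 229 and 231 CPM in GLAD, 267 and 264 CPM in TIN and 187 and 187 CPM in the double mutant, against 162 and 155 CPM in wild type. It was higher by 0.54 ± 0.09 in GLAD (adjusted p = 6.3e-05), by 0.74 ± 0.09 in TIN (9.8e-07) and by 0.24 ± 0.09 in the double mutant (3.0e-02). The call in the double mutant ended without its normoxia library A (0.27, 6.2e-02) or B (0.24, 9.9e-02) or wild-type library B (0.20, 8.3e-02), with no filter on low values (0.24, 8.9e-02), in a fit of those groups alone (0.24, 7.4e-02) and with length and GC trends removed (0.17, 7.9e-02). Scd2 had 399.9 and 391 CPM in the double mutant, 591 and 592 CPM in GLAD and 694 and 719.6 CPM in TIN, against 842 and 725 CPM in wild type. It was lower by 0.98 ± 0.08 in the double mutant (−0.98, 9.4e-09) and by 0.40 ± 0.08 in GLAD (−0.40, 3.7e-04), with −0.15 ± 0.08 in TIN (1.3e-01), a value called without wild-type library B (−0.25, 8.9e-03) and at −0.04 without A (7.0e-01).

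Pparg was higher than in wild type in GLAD, by 0.96 ± 0.22 (adjusted p = 1.1e-03), and in TIN, by 1.56 ± 0.22 (5.8e-06). The GLAD and TIN libraries, at 8.71 to 15.5 CPM, all lay above wild type at 4.64 and 4.56 CPM. In the double mutant Pparg differed by −0.51 ± 0.22 (5.4e-02), without double mutant normoxia library B by −0.89 (3.2e-03) and without A by −0.09 (7.7e-01), and the value was called with the letter as a replicate block (−0.51, 4.7e-02). The adipocyte marker Fabp4 had another order, with 58.9 CPM in GLAD, 12.8 CPM in TIN and 36.0 CPM in the double mutant, against 16.3 CPM in wild type. It was higher in GLAD by 1.85 ± 0.20 (4.3e-07) and in the double mutant by 1.14 ± 0.20 (9.0e-05), with −0.31 ± 0.20 in TIN (1.8e-01). The summed level of the 8 adipocyte markers averaged 75.8 CPM in GLAD, 39.2 CPM in TIN and 67.8 CPM in the double mutant, against 33.9 CPM in wild type, nearly all of it Fabp4 and Lipe. Whether a share of more adipocyte-like cells has a part in these values was not tested, and in bulk RNA fewer cells of a type and less RNA per cell cannot be told apart.

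**Figure D4:**
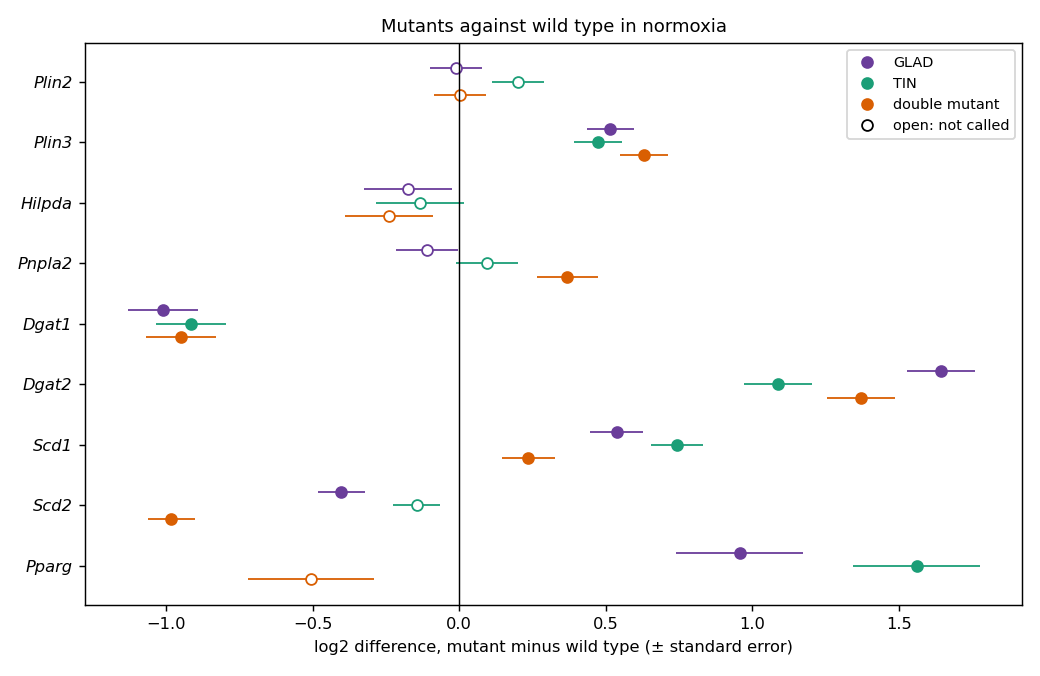
Log2 difference between each mutant and wild type in normoxia (horizontal axis) for 9 genes, with bars of 1 standard error; filled points were called at an adjusted p under 0.05. Dgat2 lies at 1.09 to 1.64 and Dgat1 at −1.01 to −0.91 in the 3 mutants, and Pparg lies at 0.96 and 1.56 in GLAD and TIN and at −0.51 in the double mutant.

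Between the mutants, Pparg and the desaturases were among the genes by which the double mutant differed from both single mutants. In normoxia Pparg was lower in the double mutant than in GLAD by 1.46 ± 0.22 (−1.46, adjusted p = 3.6e-05) and than in TIN by 2.07 ± 0.22 (−2.07, 2.8e-07). In hypoxia the differences were −1.48 ± 0.22 (2.9e-05) and −1.64 ± 0.22 (3.2e-06), and all 4 double mutant libraries lay below all 8 libraries of the single mutants. Scd2 was lower in the double mutant in normoxia, by 0.58 against GLAD (−0.58, 1.7e-05) and by 0.84 against TIN (−0.84, 8.7e-08). Scd1 was lower than in TIN in normoxia by 0.51 (−0.51, 1.2e-04), and in hypoxia by 0.46 against GLAD (−0.46, 4.1e-04) and by 0.58 against TIN (−0.58, 1.7e-05). Plin3 too was lower in the double mutant in hypoxia, against GLAD (−0.43, 3.8e-04) and against TIN (−0.64, 2.1e-06). Pnpla2 was higher in the double mutant in normoxia, against GLAD (0.48, 1.6e-03) and against TIN (0.27, 3.8e-02). The last call ended under 7 alternatives, among them no filter on low values (0.27, 7.7e-02). The others each left out a single library. The value was 0.21 without TIN normoxia library B, 0.34 without TIN normoxia A and 0.25 without double mutant normoxia B. In normoxia 3 of 9 genes were called in TIN against GLAD (51.8% of all genes), 4 of 9 in the double mutant against GLAD (35.7%) and 4 of 9 in the double mutant against TIN (48.7%). In hypoxia the counts were 5 of 9 (63.1%), 5 of 9 (42.6%) and 9 of 9 (64%) in the same order. The last count was not stable: it ran from 7 to 9 over the processing settings that kept all libraries, and fell in some fits without 1 library. The differences of the hypoxia effect had 2 of 9 genes called for TIN minus GLAD (33.9% of all genes), 2 of 9 for the double mutant minus GLAD (14.6%) and 5 of 9 for the double mutant minus TIN (42.8%). Several of these counts moved when 1 library was left out, by the values given with the processing alternatives.

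The order of the groups by mean level shows how the members part. Hilpda and Dgat2 had their 3 highest means in the hypoxia groups, with the double mutant at the top, at 47.6 ± 10.7 and 115 ± 8.5 CPM (SD, n = 2 each). In hypoxia Hilpda was higher in the double mutant than in GLAD by 0.57 ± 0.15 (adjusted p = 5.3e-03) and than in TIN by 0.48 ± 0.15 (9.2e-03), but without double mutant hypoxia library B these were 0.34 (1.2e-01) and 0.25 (1.9e-01), and without TIN hypoxia library A the second was 0.45 (5.9e-02). Dgat2 in the double mutant and its next group, GLAD hypoxia, differed by 0.25 ± 0.12 (9.7e-02), called without either wild-type library (0.25, 4.3e-02) or in a fit of those groups alone (0.25, 1.1e-02). The next Hilpda means, 33.5 ± 1.1 CPM in TIN hypoxia and 31.6 ± 0.6 CPM in GLAD hypoxia, differed by 0.09 ± 0.15 on the log2 scale (adjusted p = 6.4e-01). The 4 normoxia means of Hilpda, 9.41 to 11.3 CPM, did not differ by call over all libraries. Plin3 and Scd1 were highest in the normoxia groups of the mutants, at 121 to 135.0 and 187 to 266 CPM, with wild type next at 87.0 and 158 CPM. Scd2 was highest in wild type, at 784 ± 83 CPM, next to TIN normoxia at 707 ± 18 CPM (SD, n = 2 each). Per kilobase of exon, Scd2 had the highest level of the 9 genes in every group, at 72.4 to 143 CPM per kilobase, and Pparg the lowest, at 0.728 to 4.93.

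As a description over the 14 libraries, Scd1 and Plin3 had a Pearson r of 0.92 and Dgat2 and Hilpda of 0.89, while Hilpda had −0.89 with Plin3 and −0.88 with Scd1. Plin2 had no r beyond 0.52 in size with any other member. These libraries share oxygen and genotype groups, so r mainly restates the groups. Of all genes with a mean of at least 5 CPM, those most like Hilpda were Rassf1 and Gipr (r = 0.98 each). For Plin2 they were Tacc3 (0.98) and Pex6 (0.97), for Plin3 Agpat3 (0.98) and Capn1 (0.97), and for Pnpla2 Trpm4 (0.93) and Arid5a (0.92). Scd1 went with Btf3l4 (0.99) and Mpp1 (0.98), Scd2 with Farp1 (0.92) and Golim4 (0.92), Dgat1 with Itga2b (0.96) and Adck5 (0.94), Dgat2 with Mturn (0.99) and Gm16576 (0.98), and Pparg with Tesk2 (0.95) and Dpysl3 (0.95).

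Neighbouring steps of fat metabolism were read from 7 lists that leave the 10 genes out, with the mean hypoxia effect over the mutants. Enzymes that lead to triglyceride and sterol ester had 8 of 14 tested members higher and 3 lower, with a median of 0.27. The acyltransferase Agpat5 rose by 1.38 ± 0.05 (adjusted p = 6.4e-14), and the phosphatidate phosphatases Lpin1 and Lpin3, which make the diglyceride that DGAT enzymes use, rose by 1.24 ± 0.07 (4.5e-11) and 1.06 ± 0.11 (1.1e-07). Fatty acid uptake and activation had 6 of 11 higher and 4 lower, with a median of 0.20. The fatty acid transport protein Slc27a3 rose by 2.11 ± 0.06 (1.7e-15) and the lipoprotein receptor Vldlr by 1.83 ± 0.05 (9.3e-16), and the acyl-CoA synthetase Acsl5 fell by 0.97 ± 0.05 (2.3e-12). Beside these counts, 30.6% of all genes were called higher and 37% lower.

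Fatty acid synthesis, elongation and desaturation had 3 of 17 members higher and 9 lower, with a median of −0.16. The elongase Elovl6, whose products Scd1 desaturates, fell by 1.58 ± 0.06 (adjusted p = 6.4e-14), acetyl-CoA carboxylase Acaca by 0.89 ± 0.06 (1.4e-10) and the delta-5 desaturase Fads1 by 0.52 ± 0.04 (7.7e-09). The 3 that rose were Elovl4 (0.34), Fads3 (0.19) and Scd4 (0.39), named after their values were seen. Droplet coat and assembly genes had 2 of 10 higher and 6 lower, with a median of −0.17, and Plin4, another perilipin, fell by 1.31 ± 0.06 (1.5e-12). Plin4 averaged 11.8 CPM in double mutant hypoxia, against 43.3 CPM in double mutant normoxia. The droplet enzyme Hsd17b11 fell by 1.07 ± 0.08 (9.4e-10). Tmem159, whose product works with seipin at sites of droplet formation, rose by 0.54 ± 0.10 (6.8e-05). The seipin gene Bscl2, named after its value was seen, rose by 0.35 on average, mainly through TIN. It had 25.9 CPM in TIN hypoxia, against 13.3 CPM in TIN normoxia. In GLAD it had 12.7 against 13.4 CPM, and in the double mutant 15.5 against 13.6 CPM.

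Lipolysis had 1 of 6 members higher and 3 lower in hypoxia, beside 30.6% of all genes higher and 37% lower, the shares to set beside each list here. The ATGL activator Abhd5 fell by 0.37 ± 0.06 (adjusted p = 1.2e-05), the lysosomal lipase Lipa by 0.31 ± 0.05 (1.2e-05) and Abhd6 by 0.20 ± 0.07 (1.5e-02). The Abhd6 value averages opposite directions. Abhd6 had 17.4 CPM in GLAD hypoxia, against 20.3 CPM in normoxia, and 13.9 against 21.1 CPM in the double mutant. In TIN it was higher in hypoxia, at 19.2 against 16.8 CPM. The call for Abhd6 ended without TIN normoxia library B (−0.15, 6.5e-02) or TIN hypoxia library A (−0.18, 5.3e-02). The gene that rose was the monoglyceride lipase Mgll, by 1.80 to a mean of 9.10 CPM in hypoxia, against 2.06 CPM in normoxia, named after its value was seen. Fatty acid oxidation had 3 of 13 higher and 7 lower, with a median of −0.12, but the mutants differed. In GLAD 0 were higher and 7 lower, in the double mutant 2 and 6, and in TIN 4 and 2. Beside these, 48.1%, 56.1% and 53.9% of all genes were called in either direction, in the same order. Acadvl, named after its value was seen, had 215 CPM in TIN hypoxia, against 117 CPM in TIN normoxia. Cpt1a, which admits fatty acids to mitochondria, fell by 1.01 ± 0.04 (7.2e-13), Acads by 0.51 ± 0.07 (5.2e-06) and Cpt2 by 0.50 ± 0.06 (3.3e-07). Transcription factors of lipid storage had 6 of 17 higher and 6 lower, with the receptor Ppard up by 0.68 ± 0.05 (2.3e-09). Rxra, the partner of PPARγ, was down by 0.69 (−0.69 ± 0.04, 1.7e-10). Cebpd was up by 0.58 ± 0.05 (4.2e-09) on average, with 67.9 CPM in GLAD hypoxia, against 40.6 CPM in normoxia. In TIN it had 86.1 against 43.2 CPM, and in the double mutant it hardly moved, at 101 against 98.9 CPM.

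**Figure D5:**
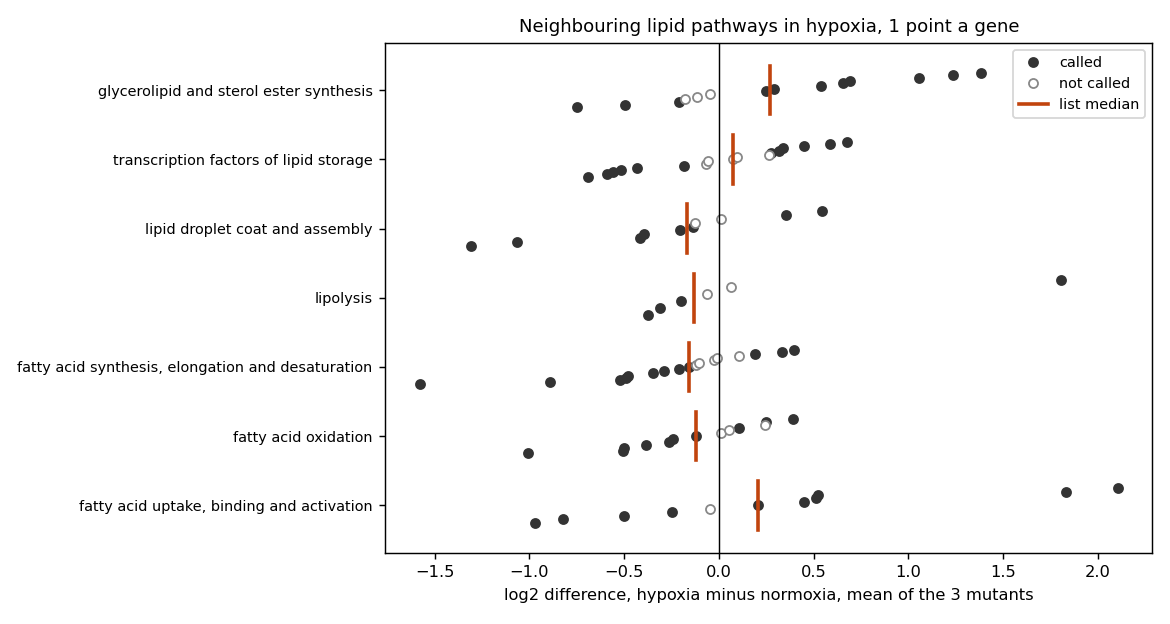
Log2 difference between hypoxia and normoxia, averaged over the 3 mutants (horizontal axis), for each tested gene of 7 lists, with filled points for called genes and a bar at the list median. The medians of glycerolipid synthesis and of fatty acid uptake are 0.27 and 0.20, and those of droplet coat genes and fatty acid synthesis are −0.17 and −0.16.

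The same lists were read against wild type in normoxia, where 26.9% of all genes were called higher and 28.3% lower in GLAD, 31.4% and 28.8% in TIN and 28.2% and 28.6% in the double mutant. Plin4 averaged 65.2 CPM in GLAD, 68.9 CPM in TIN and 43.3 CPM in the double mutant, against 13.3 CPM in wild type, and was higher by 2.26 ± 0.11, 2.33 ± 0.11 and 1.67 ± 0.11 (adjusted p = 5.8e-12, 8.9e-13 and 2.5e-10). Tmem159 averaged 7.80, 3.26 and 5.87 CPM in the same mutants, against 0.381 CPM in wild type, a level close to that of 3 reads, so its fold depends on the added constant. Coat and assembly genes had 5 of 10 higher and 3 lower in GLAD, 4 and 2 in TIN, and 3 and 2 in the double mutant, so that several counts lie near those shares. The sterol acyltransferase Soat1 was higher by 1.00 ± 0.09 in GLAD (2.7e-08), 1.45 ± 0.09 in TIN (5.3e-11) and 1.10 ± 0.09 in the double mutant (5.0e-09). In glycerolipid synthesis 5, 6 and 6 of 14 were higher and 4, 5 and 5 lower, with Agpat4 lower in all 3 mutants, at −1.08 in GLAD (1.4e-07), −1.22 in TIN (1.4e-08) and −0.99 in the double mutant (3.5e-07). Lpin3 was lower in TIN (−1.48, 2.4e-06) and in the double mutant (−0.80, 1.5e-03).

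In lipolysis 2, 3 and 4 of 6 members were higher and 0, 1 and 0 lower in GLAD, TIN and the double mutant, beside 26.9%, 31.4% and 28.2% of all genes higher and 28.3%, 28.8% and 28.6% lower. Abhd6 was higher in all 3, by 0.90 (adjusted p = 5.0e-06), 0.63 (1.6e-04) and 0.95 (2.1e-06). Abhd5 was higher in GLAD by 0.59 (6.8e-05) and in the double mutant by 0.37 (3.5e-03), the hormone-sensitive lipase Lipe was higher in TIN by 0.61 (6.7e-04) and in the double mutant by 0.87 (2.4e-05), and Lipa was lower in TIN (−0.83, 7.6e-08). In fatty acid synthesis 6, 5 and 2 of 17 were higher and 3, 2 and 7 lower. Acacb was higher in GLAD (0.89, 5.3e-06) and the double mutant (0.38, 9.8e-03), Elovl6 in GLAD (0.44, 1.4e-03) and TIN (0.73, 7.0e-06), and Elovl7 in GLAD (0.50, 1.1e-02) and the double mutant (1.62, 9.2e-08). Fads1 was higher in TIN (0.51, 1.8e-05) and lower in the double mutant (−0.22, 2.1e-02), and Tecr was lower in all 3, at −0.74 in GLAD (1.7e-05), −0.42 in TIN (2.9e-03) and −0.67 in the double mutant (4.6e-05).

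In fatty acid uptake 4, 5 and 5 of 11 were higher and 3, 2 and 4 lower, beside the same shares of all genes, 26.9%, 31.4% and 28.2% higher and 28.3%, 28.8% and 28.6% lower. The synthetases Acsl1 and Acsl4 were higher in all 3 mutants, Acsl1 by 1.08 in GLAD (adjusted p = 1.0e-07) and 1.33 in the double mutant (5.0e-09), with 56.9 CPM in TIN, against 19.8 CPM in wild type (5.4e-10), and Acsl4 by 0.91 in GLAD (3.7e-05), 2.00 in TIN (8.2e-10) and 1.16 in the double mutant (2.0e-06). Slc27a3 was lower in TIN (−1.79, 5.9e-11) and the double mutant (−0.94, 7.0e-07), and Fabp5 in the double mutant (−1.25, 1.7e-09). Fatty acid oxidation had 2, 1 and 0 of 13 members higher and 3, 7 and 6 lower than in wild type. The dehydrogenase Acadvl was lower in all 3, at −0.70 in GLAD (8.2e-07), −0.80 in TIN (8.6e-08) and −0.84 in the double mutant (7.1e-08), and so was Acads, at −0.37 (1.8e-02), −1.42 (1.5e-08) and −0.96 (3.2e-06). Acadl was lower in GLAD (−0.39, 7.0e-04), while Cpt1c was higher in GLAD (0.25, 8.8e-03) and lower in TIN (−0.89, 9.3e-09) and the double mutant (−0.43, 9.7e-05). Cpt1b was lower in the double mutant (−0.99, 2.4e-03), a call that ended without wild-type library B (−0.61, 5.1e-02). Of the transcription factors 6, 7 and 8 of 17 were higher and 6, 4 and 3 lower. Epas1, which encodes HIF-2α, averaged 10.4 CPM in GLAD, 48.6 CPM in TIN and 12.2 CPM in the double mutant, against 3.71 CPM in wild type, and was higher by 1.34 (1.8e-06), 3.54 (1.0e-12) and 1.59 (1.7e-07). Cebpd, which acts early in adipocyte formation, was higher by 1.02 (1.1e-08), 1.11 (1.5e-09) and 2.30 (7.9e-14).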

How the data were processed

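Bulk RNA was sequenced in 14 libraries, which the sample titles place in 7 groups of 2. The authors deposited CPM, which sum to the same total in every library, made from reads aligned with STAR and counted per gene with HTSeq on GRCm38.p4 (mm10), per the submitters' processing notes; versions, annotation release, strand setting and any filter are not given in the sources used here. The deposited values run in steps, from which depth was estimated at 11923542 to 15031622 reads a library, but whole reads could not be recovered well enough for a count test, so the planned count tests were not run.

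CPM were scaled by TMM factors (0.965 to 1.04), and 0.5 CPM was added before log2, so changes of low genes are understated. Genes at 1 CPM or more in 2 libraries were kept (16157). A model of 7 group means was fitted with limma 3.58.1 in R 4.3.3, with a variance trend and 7 residual degrees of freedom, and 16 comparisons were adjusted by Benjamini-Hochberg. The pipeline was tested on simulated data. The 10 genes, the 7 pathway lists and the tests were chosen with earlier results of these data known. The text names all 10 genes, and from each list the called members with a mean of at least 5 CPM and the largest change (up to 3 for the mean hypoxia effect, up to 2 for a mutant against wild type), and the 2 genes most like each member. Gene positions and exon lengths come from GENCODE M21, promoters from RefSeq. Alternatives were other constants, filters and scalings, a replicate block, fits of the compared groups alone, each library left out and, added after seeing the data, removal of the trend that a library shows with gene length and GC content.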

Additional observations from a re-analysis of the deposited data

Results flagged for a closer look

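In 9 cases the hypoxia effect on a gene differed between mutants by the interaction test of limma, with adjusted p-values over all 16157 genes. Such calls were common among all genes too, at 33.9% for TIN minus GLAD, 14.6% for the double mutant minus GLAD and 42.8% for the double mutant minus TIN. The number of cases is therefore not a result about these genes. Plin2 had an effect 0.71 higher in TIN than in GLAD (0.7078, adjusted p = 4.1e-04) and −0.84 in the double mutant relative to TIN (−0.8432, 4.7e-05). Plin3 had −0.54 in the double mutant relative to GLAD (−0.5416, 3.6e-03) and −0.80 relative to TIN (−0.7969, 3.4e-05). Scd2 had −0.36 in TIN relative to GLAD (−0.3563, 2.2e-02) and 0.62 in the double mutant relative to TIN (0.6248, 2.9e-04). Dgat2 had 0.52 in the double mutant relative to GLAD (0.5188, 4.1e-02), and relative to TIN the double mutant had 0.59 for Hilpda (0.5868, 3.2e-02) and −0.56 for Pnpla2 (−0.5574, 5.7e-03). The calls for Dgat2, for Hilpda and for Scd2 between TIN and GLAD ended when single libraries were left out, as given above. Groups of 2 libraries were too small to test a single library as an outlier.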

How the results depend on the processing

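Of 3312 values of single genes under the alternatives, 3054 kept direction and side of the threshold, 101 lost the call, 81 gained it and 76 changed sign, each of these between values that were not called. Dgat2, Scd1 and Plin3 kept their hypoxia calls in each mutant, and so did Hilpda and Dgat1, under every alternative run. With no filter on low values, the count of the 9 genes called was 1 for the effect of TIN minus GLAD, 1 for the double mutant minus GLAD and 3 for TIN against GLAD in hypoxia. In fits of the compared groups alone it was 5 for TIN against GLAD and 7 for the double mutant against TIN in normoxia. With length and GC trends removed, an alternative chosen after seeing the data, it was 5 for the effect of the double mutant minus GLAD and 6 for TIN against GLAD in normoxia. Leaving out 1 library at a time gave 1 to 3 for the effect of TIN minus GLAD (1 without GLAD normoxia B, GLAD hypoxia A, TIN normoxia B, TIN hypoxia A or double mutant normoxia A) and 1 to 4 for the double mutant minus GLAD (4 without either wild-type library, 1 without GLAD normoxia B, a GLAD hypoxia library, a TIN library or double mutant normoxia B). It gave 5 to 8 for TIN against wild type (8 without wild-type B) and 1 to 6 for TIN against GLAD in normoxia (6 without either wild-type library, 1 without a GLAD normoxia library, TIN normoxia B or GLAD hypoxia A). In hypoxia it gave 2 to 5 for TIN against GLAD (2 without TIN A, 3 without TIN B or a GLAD library) and 3 to 6 for the double mutant against GLAD (3 without double mutant B). The causes were not tested.

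Values that changed sign, none of them called, were as follows. With 1 CPM added, the Pparg effect of the double mutant minus GLAD was 0.0211. On the CPM as deposited, Plin2 was −0.0143 and Scd2 −0.0304 for the mean hypoxia effect, Scd2 −0.0034 for hypoxia in GLAD, Plin2 0.0555 for GLAD against wild type and −0.0122 for the double mutant against GLAD in normoxia, and Dgat1 −0.0132 for the double mutant against GLAD in hypoxia. With median-of-ratios scaling, Pnpla2 was 0.0052 for hypoxia in the double mutant, Plin2 0.0109 for GLAD against wild type and Dgat1 0.0101 for the double mutant against TIN in normoxia. With length and GC trends removed, Plin2 was −0.0205 and Scd2 −0.007 for the mean hypoxia effect and Scd2 −0.001 for hypoxia in GLAD. For the effect of TIN minus GLAD, Hilpda was −0.1511 and Pnpla2 −0.0017, and for the double mutant minus GLAD, Pparg was 0.0048. For GLAD against wild type, Plin2 was 0.0875 and Pnpla2 0.0356. Plin2 was −0.0035 for the double mutant against GLAD in normoxia, and in hypoxia Hilpda was −0.1382 for TIN against GLAD and Dgat1 −0.0288 for the double mutant against GLAD.

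With single libraries left out, the mean hypoxia effect ran from −0.0256 to 0.03 for Plin2 and from −0.0237 to 0.0282 for Scd2, Scd2 in GLAD from −0.0153 to 0.0315 and Pnpla2 in the double mutant from −0.0694 to 0.0348. For effects between mutants, Hilpda ran from −0.0432 to 0.1298 in TIN minus GLAD, and in the double mutant minus GLAD Scd1 ran from −0.3297 to 0.0051, Dgat1 from −0.0787 to 0.0392 and Pparg from −0.3744 to 0.3738. Scd1 ran from −0.2444 to 0.0904 in the double mutant minus TIN. Against wild type, GLAD ran from −0.3904 to 0.0398 for Hilpda, from −0.1781 to 0.1581 for Plin2 and from −0.254 to 0.0363 for Pnpla2, TIN from −0.3485 to 0.0817 for Hilpda and from −0.0505 to 0.2398 for Pnpla2, and the double mutant from −0.1654 to 0.1708 for Plin2. In normoxia, TIN against GLAD ran from −0.0446 to 0.1284 for Hilpda and from −0.0133 to 0.2069 for Dgat1, Plin2 in the double mutant against GLAD from −0.0582 to 0.0575, and Dgat1 in the double mutant against TIN from −0.1434 to 0.0768. In hypoxia, Pparg in TIN against GLAD ran from −0.0366 to 0.3379 and Dgat1 in the double mutant against GLAD from −0.0152 to 0.0639.

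The letters A and B gave no clear sign of pairing between groups. Over 21 pairs of groups the A minus B differences correlated across genes at −0.096 to 0.161, with 3 pairs over 0.1. Whether libraries of the same letter shared a culture or preparation cannot be told from these values. With the letter as a replicate block, 3 of 9 genes were called for the effect of the double mutant minus GLAD, 6 for TIN and 7 for the double mutant against wild type, and Hilpda in the first of these passed the threshold (0.63, adjusted p = 3.2e-02). The planned quasi-likelihood and negative binomial tests on recovered reads were not run, because whole reads were not recovered well enough from the steps of the CPM. Of the values under 200 CPM, 99.74% to 99.95% in a library fitted the estimated steps, beside 59.6% to 75.1% by chance. Higher values were not part of that fit. Depth limits G0s2, which did not pass the level of 3 reads in any library. Pparg, at 1.87 to 15.5 CPM, had the largest standard errors of the 9 genes, and how much of its spread is counting error was not tested.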
